A study of Mus musculus with 10 samples.

Results

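The genes described here were the immunoglobulin gene segments of the mouse, the variable (V), joining (J), diversity (D) and constant (C) genes from which antibody heavy and light chains are assembled. They were taken by their GENCODE biotype on the GRCm38 build, and a segment was kept when its raw counts summed to at least 50 over the 10 libraries. Of 264 genes with these biotypes 231 had a count and 189 were kept, out of 55421 genes in the table. They were 96 heavy-chain segments (85 V, 7 C and 4 J), 87 kappa segments (82 V, 1 C and 4 J) and 6 lambda segments (3 V and 3 C). None of the 19 D segments reached the minimum. The 189 segments held 99.92% of all counts of these biotypes. The members nearest above the minimum were Ighj1 with 50 counts, Igkv8-16 with 52 and Igkv8-34 with 53, and the genes nearest below it were Ighv7-4 with 48 counts and Igkv4-69 and Igkj3 with 46 each. Ighe, the IgE constant gene, had 31 counts over all libraries and Iglc4 had 1, so neither entered. Because the minimum is on the summed count, it favours segments that are high in at least some libraries, and that level is a description and not a finding.

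The study asked what the phosphatase SHP-2, encoded by Ptpn11, does in myeloid cells of tumor-bearing mice. In Shp2f/f mice Ptpn11 is flanked by loxP sites and SHP-2 is intact. Shp2f/fLysMcre mice have the same floxed gene and a Cre recombinase driven by the lysozyme M (Lyz2) promoter, which is known for its activity in granulocytes, monocytes and macrophages. Young adult mice were implanted with MC17-51 fibrosarcoma cells, and cells were collected 15 days later. Myeloid-derived suppressor cells (MDSC) were taken from the spleen by magnetic beads (GR1hi Ly6G+ Ly6C-), with 2 libraries per genotype, and tumor-associated macrophages (TAM) were sorted from the tumors as live CD45+ CD11b+ F4/80+ Ly6G- cells, with 3 libraries per genotype. All 4 groups carry the floxed gene and all mice bore tumors, so neither an unfloxed nor a tumor-free sample was compared. The study's methods say that TAM and MDSC came from the same mice, so libraries of the cell types are not independent, and which libraries share a mouse is not given. Whether a library holds cells of 1 mouse or of several is not given in the sources used here, and the p-values then measure the spread between these libraries only.

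In B lineage cells a V, a D and a J segment are joined to form the heavy-chain variable exon, and a V and a J segment form that of the kappa or lambda light chain. Naive B cells make IgM and IgD from the Ighm and Ighd genes, and class switching replaces these by a downstream gene for IgG (Ighg3, Ighg1, Ighg2b, Ighg2c) or IgA (Igha). Plasma cells carry very large amounts of immunoglobulin mRNA per cell, and neither MDSC nor macrophages are known as antibody-producing cells. Ighm can also be transcribed without a joined V segment.

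Library totals ranged from 28844660 to 38222998 counts, so that 3 counts corresponded to 0.0785 to 0.104 CPM, the raw count scaled by the library total. Ptpn11, the targeted gene, was at 117 and 102 CPM in Shp2f/f MDSC and at 97.5 and 87.1 in Shp2f/fLysMcre MDSC, and at 123 to 126 CPM in Shp2f/f TAM against 46.6 to 50.8 in Shp2f/fLysMcre TAM. The genotypes did not overlap in either cell type, but the gap in MDSC was small. A list of 10 neutrophil genes summed to 8902 to 28605 CPM in MDSC and to 265 to 395 in TAM, whereas 10 macrophage genes summed to 2720 to 3427 CPM in MDSC and to 13279 to 21472 in TAM. Adgre1, the gene of the F4/80 antigen, was thus detected in the MDSC libraries, at 229 to 396 CPM. In Shp2f/fLysMcre MDSC the neutrophil list was higher (25607 and 28605 against 8902 and 9125 CPM), as was an erythroid list (417 and 600 against 213 and 240 CPM). The part of this difference in cell makeup in the immunoglobulin results was not tested, and in these bulk libraries fewer cells of a type and less RNA per cell cannot be told apart.

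Immunoglobulin mRNA made up 0.365% and 0.496% of all counts in Shp2f/f MDSC and 0.655% and 0.925% in Shp2f/fLysMcre MDSC. In TAM it made up 0.0013% to 0.0014% in Shp2f/f and 0.0024% to 0.0038% in Shp2f/fLysMcre libraries. A count was present for 187 to 189 of the 189 segments in each MDSC library and for 21 to 37 in each TAM library. The constant-region genes held 76.7% to 84.7% of the members' counts in MDSC and 81.1% to 92.9% in TAM.

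In MDSC the heavy and kappa chains were higher in Shp2f/fLysMcre libraries and the lambda chain was not. Heavy-chain members summed to 3133 and 2282 CPM in Shp2f/f and to 5669 and 3973 CPM in Shp2f/fLysMcre MDSC, a log2 ratio of means of 0.83. Kappa members summed to 1632 and 1228 CPM in Shp2f/f against 3435 and 2456 CPM, a log2 ratio of 1.04. For both chains the libraries of the genotypes did not overlap. Lambda members summed to 192 and 139 CPM in Shp2f/f and to 145 and 120 CPM in Shp2f/fLysMcre MDSC, which overlapped, with a log2 ratio of -0.33. These sums carry no test, since the members were chosen with results of these data known.

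Gene by gene, 187 of the 189 members entered the edgeR test in MDSC, and 25 passed the threshold of 0.05 on the adjusted p. Shp2f/fLysMcre libraries had higher values in 21 of them and lower values in 4. Some of the 25 passed the filter on low counts only through the group in which they were high. Of all genes tested 4.28% were called, 3.76% higher and 0.52% lower. The median log2 fold change of the members was 0.93, beside -0.01 over all genes tested, and 147 members had a positive and 40 a negative fold change. The libraries of the genotypes did not overlap in 90 members that were higher and 15 that were lower, beside 27.5% and 20.3% of all genes tested. Without Shp2f/f replicate 1 or without Shp2f/f replicate 2 the edgeR test called 0 members (68 and 50 had an unadjusted p under 0.05), whereas without Shp2f/fLysMcre replicate 1 it called 59 and without replicate 2 it called 142. These fits set 1 library against 2 and assume that the lone library varies like the others. The share of all genes called in them was not taken, so their counts are not read as a result about the members. The log2 fold changes of the IgG genes and Igha stayed of like size without either Shp2f/f library, at 3.72 and 3.22 for Ighg2b, 3.42 and 2.62 for Ighg1 and 1.43 and 1.18 for Igha. With all 4 libraries DESeq2 called 62 members, the 25 among them, and the share of all genes it called was not taken.

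By isotype, the constant genes of all 4 IgG subclasses and of IgA rose in Shp2f/fLysMcre MDSC, that of IgD fell, and that of IgM was lower without passing the test. Ighg2b, the IgG2b constant gene, was at 65.4 and 45.9 CPM in Shp2f/f and at 781 and 462 CPM in Shp2f/fLysMcre MDSC, a log2 fold change of 3.45 ± 0.35 (SE, edgeR adjusted p = 0.0183). Ighg1 was at 80.1 and 45.6 against 565 and 443 CPM (2.97 ± 0.32, adjusted p = 0.0183 by edgeR). Ighg2c, the IgG2c gene that C57BL/6 mice carry in place of IgG2a, was at 121 and 91.1 against 884 and 603 CPM (2.78 ± 0.27, edgeR adjusted p = 0.0183). All IgG values of Shp2f/fLysMcre libraries lay above all those of Shp2f/f libraries of the same gene. Ighg3 was at 52.6 and 47.3 against 332 and 241 CPM (2.49 ± 0.22, edgeR adjusted p = 0.0179). Igha, the IgA constant gene, was at 347 and 290 CPM in Shp2f/f and at 827 and 787 CPM in Shp2f/fLysMcre MDSC. Its log2 fold change was 1.30 ± 0.15 (edgeR adjusted p = 0.0187), and the call was lost without a filter on low counts (edgeR adjusted p = 0.0529).

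The genes of the unswitched isotypes had negative fold changes. Ighm, which encodes the IgM heavy chain, was at 2066 and 1549 CPM in Shp2f/f MDSC and at 1384 and 1059 CPM in Shp2f/fLysMcre MDSC. The groups did not overlap, but the log2 difference of -0.60 ± 0.22 did not pass the test (edgeR adjusted p = 0.233). Ighd, the IgD gene that marks mature naive B cells, fell from 7.16 and 4.58 CPM to 1.37 and 1.51 CPM. Its log2 fold change was -2.07 ± 0.29 (edgeR adjusted p = 0.0265), and the call was lost without a filter on low counts (edgeR adjusted p = 0.0747).

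**Figure D1:**
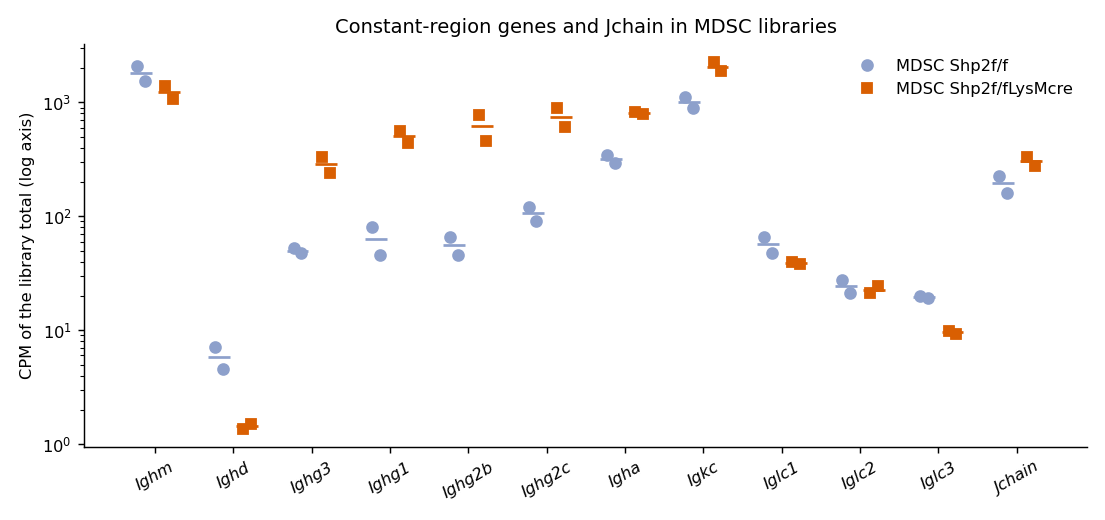
Level of the 11 constant-region members and of Jchain in each MDSC library, in CPM of the library total on a log axis; points are libraries and bars are the means of 2. The 4 IgG genes and Igha lie higher in Shp2f/fLysMcre, and Ighd and Iglc3 lie lower.

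Divided by annotated exon length, which allows genes to be compared with each other, Ighm made up 78.4% and 77.9% of the heavy constant signal (CPM per kb) in Shp2f/f MDSC and 31.2% and 32.1% in Shp2f/fLysMcre MDSC. The 4 IgG genes together made up 12.01% and 11.6% against 55.6% and 51.0%. Igha made up 9.32% and 10.3% against 13.2% and 16.9%. The switched isotypes, IgG and IgA, thus went from 21.3% and 21.9% to 68.8% and 67.9% of the heavy constant signal per kb. Within IgG, Ighg2c was the largest in both genotypes, with 54.5% and 56.2% of the IgG signal in Shp2f/f and 50.9% in each Shp2f/fLysMcre library. Ighg2b went within IgG from 14.6% and 14.02% to 22.3% and 19.3%, and Ighg3 went from 12.5% and 15.4% to 10.1% and 10.7%. Ighg1 (18.4% and 14.4% against 16.6% and 19.1%) overlapped between the genotypes. These shares are on annotated lengths, and the annotated Ighg2c exons sum to 1326 bases against 2512 to 2678 for the other IgG genes, which raises its value per kb.

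**Figure D2:**
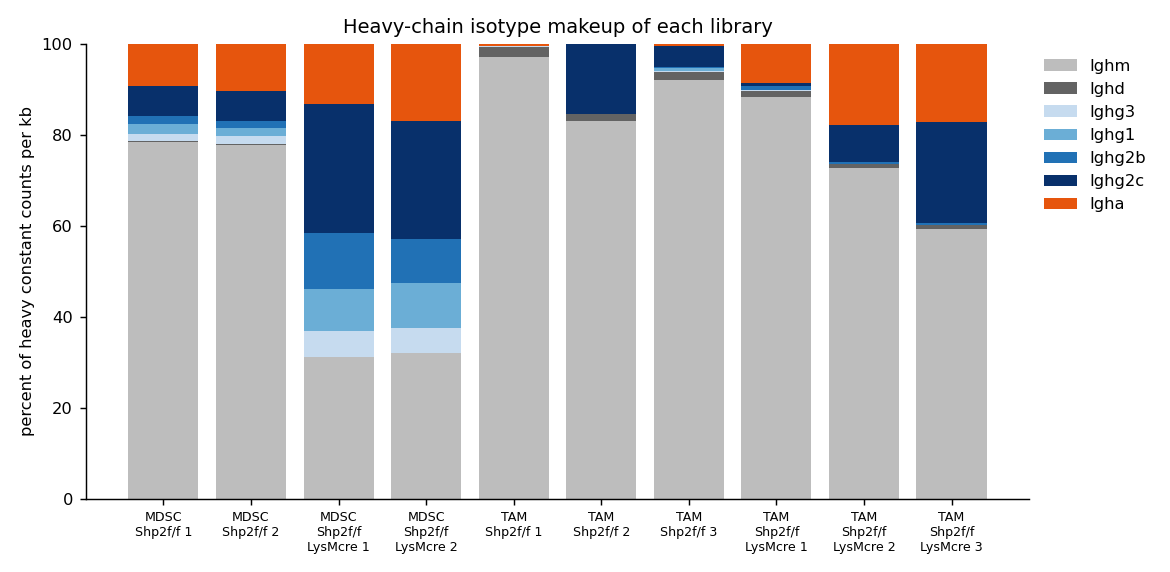
Makeup of the heavy-chain constant signal in each of the 10 libraries, as percent of CPM per kb of annotated exon summed over the 7 heavy constant members; each bar is a library. Ighm fills 78% of the bar in Shp2f/f MDSC, 31.2% and 32.1% in Shp2f/fLysMcre MDSC, and 59.3% to 97.1% in TAM.

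The IgG subclasses differ most in the hinge, the flexible stretch between the antigen-binding arms and the Fc part, which has an exon of its own. The hinge exons are shown because they differ in length and in cysteine codons among the 4 genes that rose together. Each is written 5′ to 3′ on the coding (minus) strand of chromosome 12 of GRCm38, from GENCODE M21, with the in-frame cysteine codons, whose residues can bridge the heavy chains, in capitals. Ighg1 has 39 bases and 4 such codons (chr12:113329844-113329882), Ighg2b 66 bases and 4 (chr12:113307261-113307326), Ighg2c 63 bases and 3 (chr12:113288263-113288325) and Ighg3 48 bases and 1 (chr12:113360529-113360576).
Ighg1: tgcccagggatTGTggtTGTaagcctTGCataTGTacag
Ighg2b: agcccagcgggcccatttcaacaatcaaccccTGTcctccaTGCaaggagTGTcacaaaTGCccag
Ighg2c: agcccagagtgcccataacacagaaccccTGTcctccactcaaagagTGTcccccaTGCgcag
Ighg3: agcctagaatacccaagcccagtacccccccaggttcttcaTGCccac
Reads were 42 bases long, and of all 42-base windows of the annotated transcripts 8.02% in Ighg2c, 5.69% in Ighg2b, 1.90% in Ighg3 and 0.71% in Ighg1 also occur in another gene, so that the 4 subclasses could largely be told apart. No such window was shared by Ighm, Ighd, Igha, Igkc or Iglc1.

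Of the light chains, kappa was higher in Shp2f/fLysMcre MDSC and lambda was not. Igkc, the only kappa constant gene, was at 1120 and 893 CPM in Shp2f/f MDSC and at 2244 and 1877 CPM in Shp2f/fLysMcre MDSC. The groups did not overlap, with a log2 difference of 0.997 ± 0.19 that missed the threshold (edgeR adjusted p = 0.0521); it was called with DESeq2 (adjusted p = 7.668e-06) and with library totals in place of scaling factors (edgeR adjusted p = 0.0385). Iglc3 fell from 19.99 and 19.1 to 9.84 and 9.33 CPM, a log2 fold change of -1.07 ± 0.13 (edgeR adjusted p = 0.0212). The call of Iglc3 was lost without a filter on low counts (edgeR adjusted p = 0.0548). Iglc1 was at 66.3 and 47.8 CPM in Shp2f/f and at 40.0 and 38.2 CPM in Shp2f/fLysMcre MDSC (edgeR adjusted p = 0.162), without overlap. Iglc2, at 27.6 and 21.2 against 21.2 and 24.2 CPM (edgeR adjusted p = 0.691), overlapped. Iglc2 and Iglc3 share 64 windows of read length, 11.2% and 15.6% of their windows, so their split is uncertain. Lambda made up 10.1% and 9.80% of the light-chain constant signal per kb in Shp2f/f and 3.31% and 3.93% in Shp2f/fLysMcre MDSC, and the kappa to lambda ratio per kb went from 8.95 and 9.21 to 29.2 and 24.5. The lambda variable segments Iglv1 (60.9 and 41.6 against 61.5 and 39.7 CPM), Iglv2 (13.7 and 6.99 against 8.39 and 6.76) and Iglv3 (3.82 and 1.79 against 3.65 and 1.34) overlapped between the genotypes.

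Jchain, which encodes the peptide that joins IgM and IgA into polymers, was at 227 and 161 CPM in Shp2f/f and at 333 and 274 CPM in Shp2f/fLysMcre MDSC. The values did not overlap, and the log2 difference of 0.61 ± 0.22 did not pass the test (edgeR adjusted p = 0.215).

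The J segments, 38 to 54 bases long, carried few counts. The heavy J members summed to 1.32 and 0.80 CPM in Shp2f/f and to 3.51 and 1.56 CPM in Shp2f/fLysMcre MDSC, and the kappa J members to 2.19 and 0.89 against 4.57 and 2.35 CPM. All 8 had a positive fold change, from 0.81 to 1.66 on the log2 scale, with edgeR adjusted p from 0.220 to 0.558. Ighj4, Igkj1 and Igkj5 did not overlap between the genotypes. The 8 J members are shown because they hold the conserved motif that begins framework 4 of the antibody: tryptophan-glycine-any-glycine in the heavy segments (searched as TGG GGN NNN GG) and phenylalanine-glycine-any-glycine in the kappa segments (searched as TTN GGN NNN GG), in capitals, 5′ to 3′ on the coding strand (minus for Ighj on chromosome 12, plus for Igkj on chromosome 6).
Ighj1: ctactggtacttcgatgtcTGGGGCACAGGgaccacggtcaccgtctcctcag
Ighj2: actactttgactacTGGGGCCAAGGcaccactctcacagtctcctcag
Ighj3: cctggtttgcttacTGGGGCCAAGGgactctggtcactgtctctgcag
Ighj4: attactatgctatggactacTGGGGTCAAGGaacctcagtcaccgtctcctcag
Igkj1: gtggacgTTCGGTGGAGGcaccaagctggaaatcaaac
Igkj2: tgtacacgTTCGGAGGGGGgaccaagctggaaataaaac
Igkj4: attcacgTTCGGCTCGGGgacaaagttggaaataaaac
Igkj5: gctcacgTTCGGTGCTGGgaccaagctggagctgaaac
On the coding strand the heavy motif was found in 4 of 4 annotated Ighj segments and in 0 of 5 Igkj segments, and the kappa motif in 4 of 5 Igkj, 4 of 5 Iglj and 0 of 4 Ighj segments; on the opposite strand neither was found in these segments. The kappa segment without it was Igkj3, the J segment that fell short of 50 counts.

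Of the 170 V members 168 were tested in MDSC, and 16 were called higher and 2 lower in Shp2f/fLysMcre. Of all genes tested 3.76% were called higher and 0.52% lower. The median log2 fold change of the V members was 0.89. The heavy V members (9 higher, 1 lower, median 0.91) and the kappa V members (7 higher, 1 lower, median 0.91) had like medians, and the 3 lambda V members lay between -0.48 and -0.05. V segments are closely related, and in 132 of the 170 more than 10% of the windows of read length also occur in another gene (median 32.0%), so values of single V segments are uncertain.

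Among the most abundant heavy V segments, Ighv1-26 was at 20.4 and 9.64 CPM in Shp2f/f and at 39.3 and 13.6 in Shp2f/fLysMcre MDSC, and overlapped. Ighv3-6 (11.7 and 6.40 against 45.5 and 16.8 CPM), Ighv1-80 (12.5 and 7.44 against 43.9 and 17.0) and Ighv9-3 (10.8 and 4.79 against 43.0 and 20.2) did not overlap, with edgeR adjusted p of 0.166, 0.179 and 0.115. Ighv5-9-1 rose from 3.58 and 1.85 to 44.1 and 19.5 CPM (3.53 ± 0.54 on the log2 scale, edgeR adjusted p = 0.0318). The call of Ighv5-9-1 was lost without a filter on low counts (edgeR adjusted p = 0.0783). Among the most abundant kappa V segments, Igkv5-39 (39.7 and 20.6 against 92.1 and 42.7 CPM), Igkv1-110 (27.7 and 21.3 against 51.1 and 29.99) and Igkv19-93 (15.8 and 7.35 against 48.2 and 23.0) did not overlap and were not called. Igkv14-111 (25.6 and 12.7 against 41.9 and 18.9 CPM) and Igkv1-117 (29.3 and 22.2 against 33.2 and 19.7) overlapped. In both genotypes the V segments were lower in replicate 2 than in replicate 1 relative to the constant genes: there were 24.7 and 19.4 V counts per 100 C counts in Shp2f/f and 30.3 and 18.02 in Shp2f/fLysMcre MDSC. The standard errors of the log2 fold changes were 0.13 to 0.35 for the constant genes and 0.25 to 0.79 for the V segments named with one here.

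The largest rises among called members with a mean of at least 1 CPM were in V segments that were rare in Shp2f/f MDSC. Igkv6-14 went from 0.39 and 0.21 to 15.2 and 7.12 CPM, a log2 fold change of 5.18 ± 0.57. Igkv3-1 went from 0.15 and 0.089 to 4.04 and 1.23 CPM (4.405 ± 0.79), and Ighv1-62-2 from 0.18 and 0.15 to 3.79 and 1.31 CPM (3.91 ± 0.69). These 3 segments passed the filter on low counts only through the Shp2f/fLysMcre libraries, so their values are a description without a test. Igkv3-1 and Ighv1-62-2 also lost their calls with a minimum count of 3 in the filter and without a filter. Ighv1-59 went from 0.78 and 0.42 to 14.7 and 7.06 CPM (4.15 ± 0.53, edgeR adjusted p = 0.0221). Ighv1-81 went from 1.68 and 1.93 to 32.9 and 13.8 CPM (3.67 ± 0.49, edgeR adjusted p = 0.0238). Without a filter the calls of Ighv1-59 and Ighv1-81 were lost too (edgeR adjusted p = 0.0581 and 0.0623). These 5 segments lay far above both Shp2f/f libraries in both Shp2f/fLysMcre libraries. Besides Ighd and Iglc3, the called member at this level that fell was Igkv8-24, from 11.7 and 10.5 to 5.24 and 3.67 CPM (-1.35 ± 0.25, edgeR adjusted p = 0.0490). Its call was lost with DESeq2 size factors, with scaling that left out immunoglobulin genes and with a minimum count of 3. It was also lost without a filter and in 1 fit of all 10 libraries (edgeR adjusted p from 0.05045 to 0.212 over these settings).

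By family, the Ighv1 segments (44 members, the largest heavy family) went from 45.4% and 46.3% of heavy V counts in Shp2f/f to 53.7% and 52.8% in Shp2f/fLysMcre MDSC, with 40 of 43 tested segments positive and 7 called higher. The 2 Ighv6 members went from 9.76% and 11.1% to 2.79% and 2.37% of heavy V counts, and the 2 Ighv7 members from 6.32% and 6.18% to 1.92% and 2.07%, without a call in either family. In the kappa chain the 7 Igkv1 members went from 18.2% and 20.1% to 12.5% and 14.1% of kappa V counts, and the 3 Igkv2 members from 1.58% and 1.61% to 4.02% and 3.72%. All 20 Igkv4 members together held 12.9% to 14.6% in the 4 libraries.

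**Figure D3:**
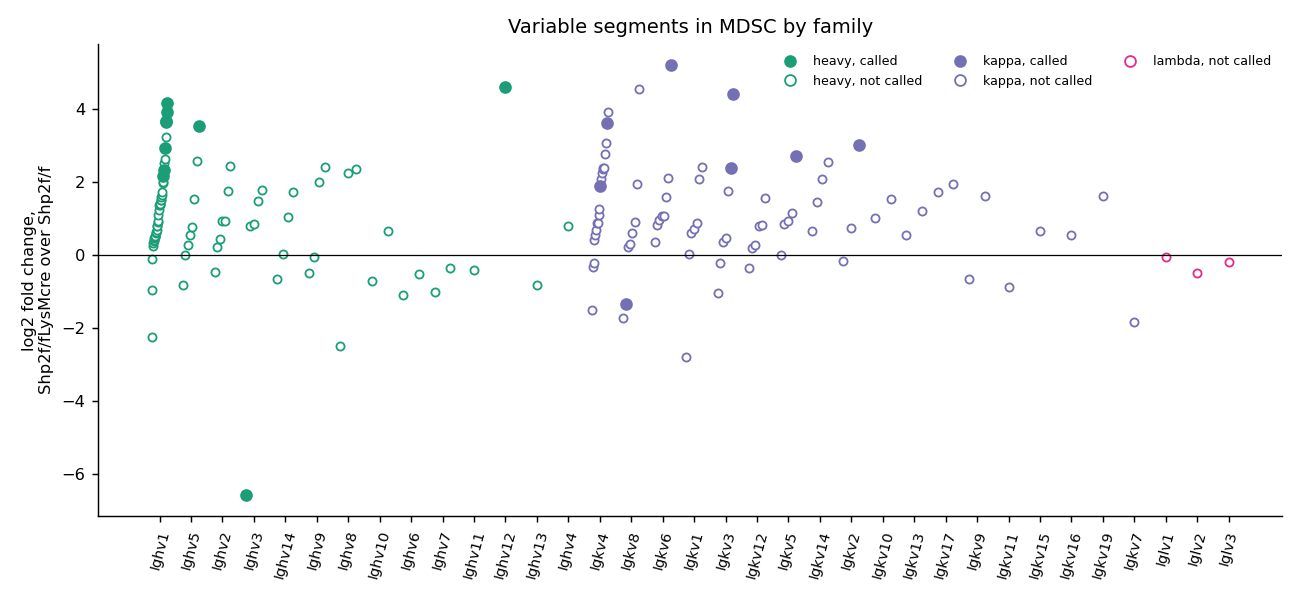
Log2 fold change (Shp2f/fLysMcre over Shp2f/f MDSC) of each tested V segment, grouped by family; filled points were called by edgeR. Most heavy and kappa families lie mainly above 0, the Ighv6 and Ighv7 segments lie below it, and the 3 lambda segments lie between -0.48 and -0.05.

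The V usage was broad in all 4 MDSC libraries. Of 113 annotated heavy V segments 94 to 100 had a count, and at the depth of the shallowest library (7043 heavy V counts) 91.7 to 95 would be seen. The effective number of heavy V segments, the inverse of the summed squared shares, was 41.0 and 40.7 in Shp2f/f and 39.3 and 40.5 in Shp2f/fLysMcre MDSC. For kappa it was 34.3 and 34.4 against 36.4 in each. The most abundant kappa V segment of a library held 6.63% to 7.76% of its kappa V counts. The most abundant heavy V segment was Ighv6-3 in both Shp2f/f libraries (6.63% and 7.03%), and Ighv3-6 (5.09%) and Ighv9-3 (5.37%) in the Shp2f/fLysMcre libraries.

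Markers of the B lineage did not move together in MDSC. Of 13 B cell genes 3 were called lower and 0 were called higher in Shp2f/fLysMcre by edgeR, beside 0.52% and 3.76% of all genes tested. Their median log2 fold change was -0.80. They summed to 74.1 and 90.6 CPM in Shp2f/f against 70.8 and 75.1 CPM, which overlapped. Pax5, the transcription factor that maintains B cell identity, fell from 3.88 and 2.65 to 0.50 and 0.44 CPM (-2.83 ± 0.34, edgeR adjusted p = 0.0206). Ms4a1, which encodes CD20, was at 4.93 and 3.04 against 1.14 and 0.57 CPM (edgeR adjusted p = 0.0648). Cd79a, a signaling chain of the B cell receptor, was at 6.58 and 5.57 against 4.01 and 3.48 CPM (edgeR adjusted p = 0.149). The others that fell were Cr2 (-2.78) and Fcmr (-2.54), a complement receptor and the IgM Fc receptor. Of the 13 genes 11 had a negative and 2 a positive fold change. Blk was at 3.94 and 4.52 CPM in Shp2f/f against 6.63 and 11.4 CPM, and Cd22 at 25.7 and 23.0 against 31.9 and 30.1 CPM. Both were higher in Shp2f/fLysMcre MDSC without overlap and without a call.

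Of 15 plasma cell genes 1, Slamf7, was called higher, beside 3.76% of all genes tested. A positive fold change was seen in 10 of them, with a median of 0.61 over the list. Mzb1, a chaperone of antibody-secreting cells, was at 2.95 and 2.20 CPM in Shp2f/f and at 6.16 and 3.89 in Shp2f/fLysMcre MDSC (edgeR adjusted p = 0.216), and Tnfrsf17, the plasma cell receptor BCMA, at 0.42 and 0.36 against 0.86 and 0.71 CPM (edgeR adjusted p = 0.237). Sdc1, which encodes the plasma cell marker CD138, was at 4.90 and 4.17 against 9.14 and 26.7 CPM (edgeR adjusted p = 0.1003). Irf4 was at 17.0 and 14.5 against 24.2 and 19.1 CPM, Prdm1 at 31.0 and 27.6 against 20.6 and 21.7, and Xbp1 at 649 and 656 against 492 and 479, and these 3 transcription factors of plasma cells were not called. Xbp1, Prdm1 and Sdc1 are also used by myeloid cells, and the summed plasma cell list (1739 and 1856 against 1620 and 1736 CPM) is mostly made of such genes. Whether the cells with immunoglobulin mRNA in these libraries were B cells or plasma cells was not tested.

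**Figure D4:**
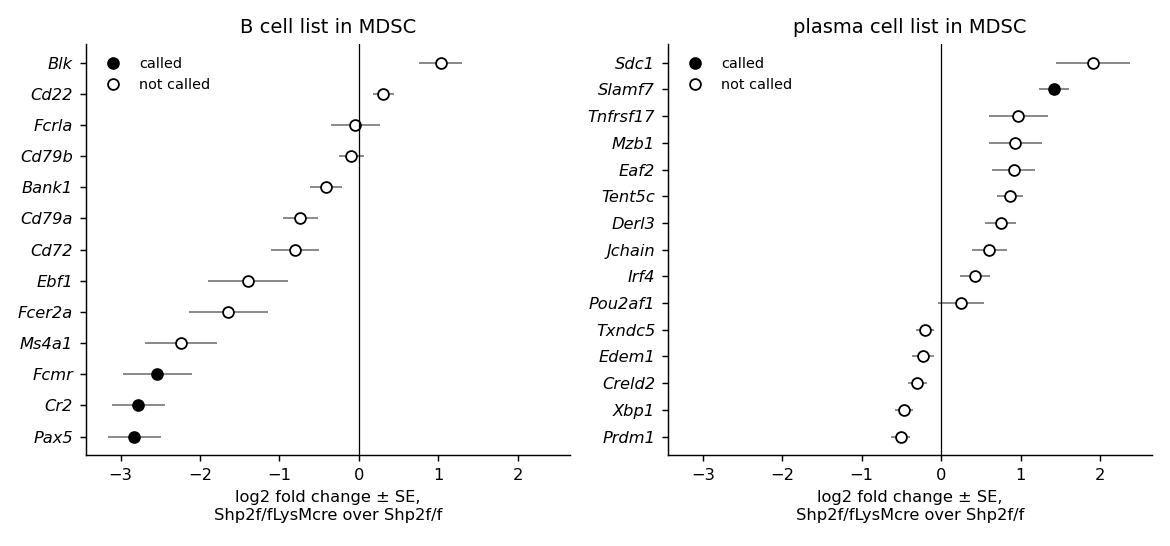
Log2 fold change with its standard error (Shp2f/fLysMcre over Shp2f/f MDSC) of the B cell and plasma cell genes; filled points were called by edgeR. Pax5, Cr2 and Fcmr fell, and Mzb1, Tnfrsf17, Derl3 and Jchain lie above 0 without a call.

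Of the other lists, the 9 genes of V(D)J recombination and early B cells summed to 3.01 and 3.34 CPM in Shp2f/f and to 9.50 and 12.9 in Shp2f/fLysMcre MDSC, where 1 of 5 tested was called higher; this was Erg (2.31 ± 0.31, edgeR adjusted p = 0.0240), a transcription factor that blood progenitors also use, and Vpreb1 and Vpreb3, which encode surrogate light chain parts, were at or under 0.45 CPM. Of 7 tested genes of germinal centers and class switching 0 were called by edgeR, with a median of -0.06. Of 10 genes of B cell receptor signaling 1 was called, Cr2 as above. Of the neutrophil list 7 of 10 genes and of the erythroid list 6 of 7 tested were called higher. Of 11 T and NK cell genes 1 was called higher, and of 10 macrophage and 6 tested plasmacytoid dendritic cell genes 1 each was called lower. Over all genes tested 3.76% were called higher and 0.52% lower. Among the 6 tested genes of immunoglobulin transport and Fc receptors the median log2 fold change was -0.27.

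In TAM, immunoglobulin mRNA was close to the limit of counting, and it was higher in Shp2f/fLysMcre libraries. Only 6 of the 189 members entered the edgeR test, of which 5 were called, all higher, where 50.2% of all genes tested were called, 23.9% higher. Igha, Ighv1-81 and Igkv1-117 passed the filter on low counts only through the group in which they were high, so this number says nothing about the members as a whole, and for these 3 raw counts are given without a test. Counting intervals below are exact 95% intervals on the summed counts of the 3 libraries of each genotype and cover counting error only.

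Ighm carried most of the signal in TAM. It had 344, 383 and 366 counts in Shp2f/f and 554, 501 and 434 counts in Shp2f/fLysMcre TAM, which is 10.2 ± 0.20 against 15.0 ± 1.38 CPM (SD, n = 3 each). The groups did not overlap, and the log2 fold change was 0.66 ± 0.08 (edgeR adjusted p = 3.059e-05). Ighd had 6 to 8 counts in every TAM library. Igkc had 20, 39 and 50 counts in Shp2f/f and 80, 117 and 154 counts in Shp2f/fLysMcre TAM, or 1.01 ± 0.39 against 3.63 ± 1.53 CPM, a log2 fold change of 1.93 ± 0.33 (edgeR adjusted p = 0.000528). The ratio of Ighm to Igkc per kb was 2.06 to 4.85 in Shp2f/f TAM and 0.795 to 1.95 in Shp2f/fLysMcre TAM, above the 0.159 to 0.520 of the MDSC libraries. Heavy V counts were 2.79 to 12.9 per 100 heavy C counts in TAM and 10.04 to 18.7 in MDSC.

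Among the constant genes in TAM, Igha had the largest ratio of summed counts between the genotypes. It had 2, 0 and 2 counts in Shp2f/f and 76, 174 and 177 counts in Shp2f/fLysMcre TAM, so that every Shp2f/fLysMcre library stood far above the others. The summed counts, 4 against 427, give a ratio of 115 with a counting interval of 44.7 to 425. Igha was 0.56%, 0% (0 of 440, Wilson upper limit 0.87%) and 0.51% of heavy constant counts in Shp2f/f TAM and 11.7% (Wilson 95% interval 9.43 to 14.4), 24.0% (21.03 to 27.2) and 24.0% (21.1 to 27.2) in Shp2f/fLysMcre TAM. Jchain, which was not tested in TAM for its low counts, had 4, 1 and 1 against 7, 26 and 36 counts, a ratio of 12.4 (5.42 to 35.0).

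The IgG genes were scattered in TAM. Ighg2c had 0, 50 and 13 counts in Shp2f/f and 3, 39 and 114 counts in Shp2f/fLysMcre TAM, which overlapped (log2 difference 1.62 ± 1.02, edgeR adjusted p = 0.213). Ighg2b had 0, 0 and 2 against 7, 4 and 6 counts. Ighg1 and Ighg3 summed to 2 or 3 counts in each genotype, at or under the floor of 3 counts over a group, and the lambda constant genes to 5 counts in Shp2f/f and 11 in Shp2f/fLysMcre TAM. No IgG difference was shown by a test in TAM, since Ighg2c was not called and the other IgG genes did not enter the test. A difference in Ighg1 or Ighg3 was not detectable at this depth.

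Few V segments made up the V counts in TAM. Over all annotated V segments, the V counts of a library numbered 31 to 53 in Shp2f/f and 74 to 205 in Shp2f/fLysMcre TAM, and segments with at least 10 counts, 1 to 2 per Shp2f/f and 2 to 10 per Shp2f/fLysMcre library, held 35.5% to 74.6% of them. Of the 16 segments that reached 10 counts in any TAM library, 2 did so in 3 libraries, 3 in 2 libraries and 11 in a single library. The 2 were Ighv1-81 and Igkv1-117, both in the 3 Shp2f/fLysMcre libraries. Ighv1-81 had 0, 0 and 0 counts in Shp2f/f and 18, 25 and 27 counts in Shp2f/fLysMcre TAM. The exact 95% counting interval of the ratio starts at 19.9. With the Shp2f/f sum set to a floor of 3 counts the ratio was 25.2, which is not a bound. Igkv1-117 had 0, 1 and 0 against 28, 25 and 12 counts, a ratio of 70.2 with a counting interval of 12.2 to 2813.

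**Figure D5:**
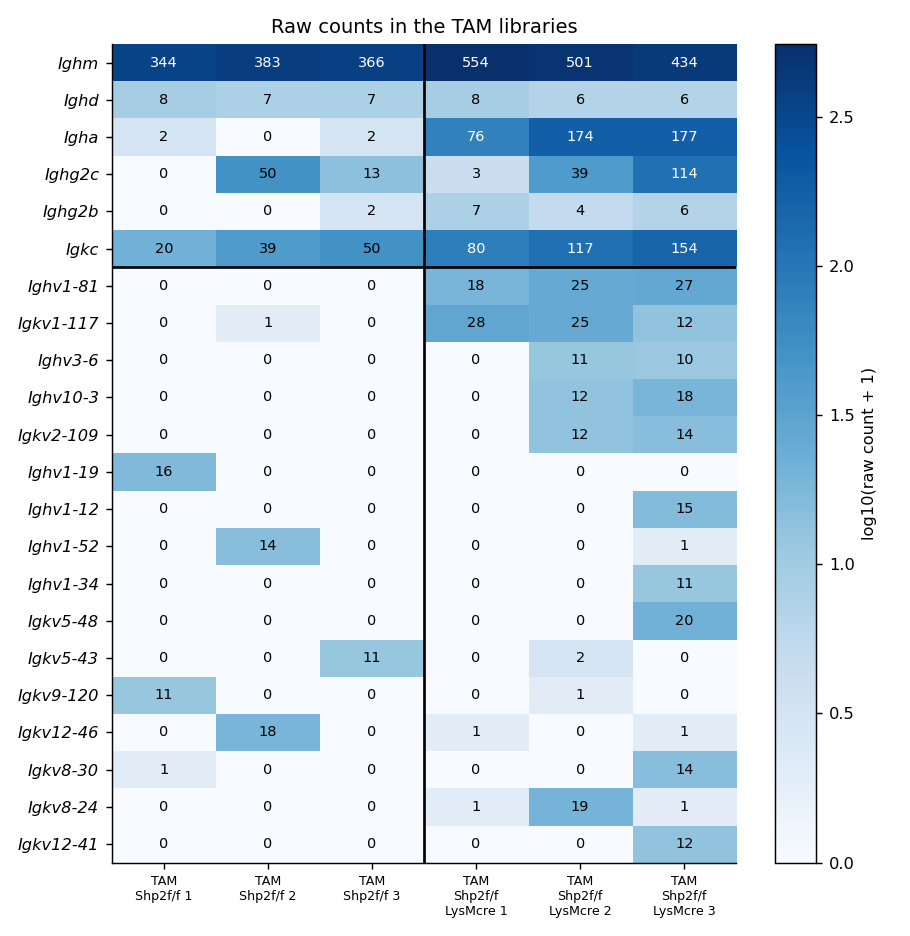
Raw counts in the 6 TAM libraries of 6 constant-region genes and of the 16 V segments with at least 10 counts in any of them; each cell is a library's count, shaded by its log10(raw count + 1). Igha, Ighv1-81 and Igkv1-117 are high in the 3 Shp2f/fLysMcre libraries, and 11 V segments reach 10 counts in a single library.

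Both segments are shown because they recur in the 3 Shp2f/fLysMcre TAM libraries. The last 300 coding bases of each V exon are from GENCODE M21 on GRCm38, 5′ to 3′, with the last in-frame cysteine codon, after which the third complementarity-determining region begins, in capitals. The stretch of Ighv1-81 lies on the minus strand at chr12:115920279-115920578 and that of Igkv1-117 on the plus strand at chr6:68121528-68121827. Windows of read length shared with other genes made up 22.9% of Ighv1-81 and 55.4% of Igkv1-117.
Ighv1-81: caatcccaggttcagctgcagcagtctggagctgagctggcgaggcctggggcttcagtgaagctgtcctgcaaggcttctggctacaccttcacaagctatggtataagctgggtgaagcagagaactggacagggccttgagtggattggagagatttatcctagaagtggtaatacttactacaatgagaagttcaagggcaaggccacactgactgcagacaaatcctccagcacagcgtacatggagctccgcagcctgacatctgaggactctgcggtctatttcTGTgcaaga
Igkv1-117: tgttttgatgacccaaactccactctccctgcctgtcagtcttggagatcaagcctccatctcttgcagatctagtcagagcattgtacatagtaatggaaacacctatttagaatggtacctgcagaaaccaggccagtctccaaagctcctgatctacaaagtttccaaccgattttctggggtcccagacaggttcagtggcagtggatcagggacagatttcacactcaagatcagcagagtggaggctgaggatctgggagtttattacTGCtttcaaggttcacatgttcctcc
Ighv1-81 made up 18 of 31, 25 of 55 and 27 of 95 counts of heavy V members in the Shp2f/fLysMcre TAM libraries, or 58.1% (Wilson 95% interval 40.8 to 73.6), 45.5% (33.0 to 58.5) and 28.4% (20.3 to 38.2). In Shp2f/fLysMcre MDSC it made up 3.69% of heavy V counts in each library, and in Shp2f/f MDSC 0.43% and 0.93%. Igkv1-117 made up 66.7% (51.6 to 79.0), 30.9% (21.9 to 41.6) and 11.3% (6.60 to 18.8) of kappa V counts in Shp2f/fLysMcre TAM against 2.80% and 3.42% in Shp2f/fLysMcre MDSC and 5.74% and 6.65% in Shp2f/f MDSC, and the interval of the lowest TAM share reaches the latter. Since these segments were picked for their counts in those 3 libraries, the shares are a description.

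The remaining V segments were shared by fewer TAM libraries. Ighv3-6 (11 and 10 counts), Ighv10-3 (12 and 18) and Igkv2-109 (12 and 14) were found in Shp2f/fLysMcre replicates 2 and 3 and had 0 counts in the other 4 TAM libraries. Among Shp2f/f libraries, Ighv1-19 (16 counts) and Igkv9-120 (11) were in replicate 1, Ighv1-52 (14) and Igkv12-46 (18) in replicate 2 together with the 50 Ighg2c counts, and Igkv5-43 (11) in replicate 3. Igkv5-48 (20 counts) and 4 other segments reached 10 counts in Shp2f/fLysMcre replicate 3 alone, and Igkv8-24 had 19 counts in Shp2f/fLysMcre replicate 2 and 1 in each of the other two. These segments other than Ighv3-6, Igkv8-24 and the most abundant ones were named after their counts were seen.

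Defining markers of B lineage cells were near 0 in TAM. Cd79a summed to 22 counts in Shp2f/f and 16 in Shp2f/fLysMcre TAM, Ms4a1 to 26 and 33, Mzb1 to 4 and 1 and Tnfrsf17 to 3 and 3, and the counting interval of each ratio includes 1. Derl3, a gene of the secretory pathway of plasma cells, summed to 55 and 24 counts. It passed the filter on low counts only through the Shp2f/f libraries, so its counts are given without a test. Sdc1 (292 ± 11.5 against 156 ± 6.05 CPM), Prdm1 (221 ± 3.55 against 138 ± 2.03), Irf4 (4.27 ± 0.66 against 3.22 ± 0.41) and Xbp1 (196 ± 6.63 against 204 ± 8.68) are not specific to plasma cells and are used by macrophages too. Of the 13 B cell genes 6 were tested and 3 called higher, beside 23.9% of all genes tested, among them Cd79b (3.40 ± 0.13 against 9.41 ± 0.19 CPM, SD, n = 3), and the summed list was 267 to 271 against 387 to 422 CPM, most of it from Cd72 (241 ± 1.61 against 349.6 ± 16.3 CPM). Of the 15 plasma cell genes 10 were tested, with 3 called higher and 6 lower, Derl3 among the latter. Of all genes tested 50.2% were called in either direction. All 6 tested genes of immunoglobulin transport and Fc receptors were called higher, beside 23.9% of all genes tested. This list summed to 2926 to 3029 CPM in Shp2f/f and 4057 to 4288 in Shp2f/fLysMcre TAM. The part of B lineage cells in the TAM counts was not tested.

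Whether the genotype difference itself differed between the cell types was tested with an interaction in all 10 libraries. Of 187 members tested 5 were called, all with a more positive difference in TAM, where 24.9% of all genes tested were called, 12.2% in that direction. They were Igha (5.55 ± 0.82 on the log2 scale, edgeR adjusted p = 0.00104), Igkv1-117 (5.78 ± 0.95, adjusted p = 0.00194 by edgeR), Ighm (1.29 ± 0.22, edgeR adjusted p = 0.00262), Ighd (2.17 ± 0.42, edgeR adjusted p = 0.00461) and Igkv8-24 (7.32 ± 1.97, edgeR adjusted p = 0.0315). Values of Igkv1-117, Igkv8-24 and Igha rest on 0 to 4 summed counts in Shp2f/f TAM and are not bounds. These 3 members passed the filter on low counts in this fit through the MDSC libraries, and their calls are read as a description. Igkv8-24 lost its call when any 1 of the Shp2f/f libraries of either cell type was left out (edgeR adjusted p from 0.0583 to 0.0848). With genotype and replicate number taken to mark a mouse, as a block, the calls of Ighd (2.09, edgeR adjusted p = 0.0791) and Igkv8-24 (7.62, edgeR adjusted p = 0.190) were lost and the other 3 stayed. For Ighg2c (-1.20 ± 1.27, edgeR adjusted p = 0.540) and Igkc (0.94 ± 0.44, edgeR adjusted p = 0.147) a difference between the cell types was not shown.

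Between the cell types in Shp2f/f mice, all 161 members that entered the test were lower in TAM and called, beside 78.8% of all genes tested that were called and 38.8% that were called lower, which is a description, as the minimum on summed counts selects segments that are high in some libraries. Constant genes ranged from Ighd, at 5.87 ± 1.82 against 0.21 ± 0.03 CPM, to Ighm, at 1807 ± 366 against 10.2 ± 0.20 CPM (SD, n = 2 and 3). The order of the constant genes per kb in Shp2f/f MDSC was Igkc, Ighm, Iglc1, Igha, Ighg2c, Iglc3, Iglc2, Ighg1, Ighg2b, Ighg3 and Ighd; in each of the pairs Iglc1 and Igha, Iglc3 and Iglc2, Ighg1 and Ighg2b, and Ighg2b and Ighg3 the libraries of the neighbors overlapped.

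Across the 6 TAM libraries, the genes outside the immunoglobulin biotypes whose log2 CPM was most like that of Igkc were Reep3 (Pearson r 0.993), Sox4 (0.992), Inpp5j (0.990), Mdfic (0.988) and Rnf115 (0.987), and those most like Ighm were Tubb2a (0.997), Idh1 (0.996), Tor1aip1 (0.996), Hpse (0.995) and Ppp1r21 (0.994), out of 12049 genes. The 6 points share their libraries and fall into the 2 genotypes, so these values are a description of that split.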

How the data were processed

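RNA was measured in 10 libraries, 4 of MDSC and 6 of TAM, with polyA-selected stranded libraries read as 42-nt pairs. The deposited values are raw counts per gene, made by the authors with FastQC 0.11.5, cutadapt 2.5, STAR 2.7.3a and featureCounts of Subread 1.6.2 on GRCm38 (from the submitters' processing notes, which also list DESeq2 1.24.0). How the counting treated reads that match several genes, and its strand setting, are not given in the sources used here; with related V segments this can lose or split reads. Depth was 28844660 to 38222998 counts per library, and counting intervals and floors cover counting error only.

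Gene identifiers were matched to GENCODE M21 (99.52% matched), from which biotypes, exon lengths and sequences were taken. The members and marker lists were chosen with earlier results of these data known; 1 gene of the B cell list is not reported here. CPM were scaled by the library total. Genes were tested in R 4.3.3 with the quasi-likelihood test of edgeR 4.0.16 (filterByExpr, TMM factors, Benjamini-Hochberg over all genes tested, called at an adjusted p under 0.05), for MDSC and TAM apart, in a fit of all 4 groups for the interaction, and in the Shp2f/f libraries alone for TAM against MDSC; ± after a log2 fold change is its standard error, the log2 fold change divided by the root of F. Tested on simulated data, the MDSC comparison recovered 92% to 100% of genes changed by factors of 2 or 4, with 6.67% of calls false. Only genes above 1 CPM were changed, and the simulated spread between replicates was set below that of the MDSC libraries. The recovery therefore does not carry over to the MDSC data. It is also not for the immunoglobulin members, whose recovery was not tested. In MDSC the edgeR coefficient of variation between replicates was 0.189 in common and 0.367 at the median of the members. Named members were all constant genes, the 5 heavy and 5 kappa V segments with the highest counts and the 3 of lambda, the 5 largest called rises and falls per genotype comparison and the 3 largest per direction in the interaction, at a mean of at least 1 CPM; other names were added after their values were seen. Alternatives were DESeq2 1.42.0, other scaling factors, filters and member minimums, 1 fit of all libraries, voom weights in limma 3.58.1, a replicate block, and leaving out each library. Same-numbered libraries of the 2 genotypes did not deviate together in TAM over all genes tested (correlations -0.145 to 0.0881). They did so over the 6 members tested (0.548 to 0.837). MDSC had 2 pairs only (0.277 over all genes and 0.0721 over 187 members), whose correlations are equal by construction. Which MDSC and TAM libraries share a mouse was not checked. The labels do not say that the replicate numbers pair samples, so they were not taken to do so outside the block. Sums over members, shares and correlations were given without a test.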

Additional observations from a re-analysis of the deposited data

Results flagged for a closer look

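For 3 members named in the interaction, the fitted genotype difference was larger in TAM than in MDSC. All 3 rest on counts near 0 in Shp2f/f TAM and passed the filter on low counts through the MDSC libraries. For Igkv8-24 the difference was larger by 7.32 on the log2 scale, and its call was lost with the replicate block. Igkv8-24 had 0, 0 and 0 against 1, 19 and 1 counts in TAM, so that a single library carried it. For Igkv1-117 the difference was larger by 5.78, with 0, 1 and 0 against 28, 25 and 12 counts in TAM. For Igha it was larger by 5.55, with 2, 0 and 2 against 76, 174 and 177 counts in TAM. The sizes depend on how a count near 0 is treated in the fit, so these 3 calls are read as a description.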

How the results depend on the processing

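In MDSC the 25 called members became 62 with DESeq2 (56 higher, 6 lower), 15 with a minimum count of 3 in the filter, 5 without a filter on low counts (the 4 IgG genes and Igkv6-14), 42 in 1 fit of all 10 libraries and 16 among members with at least 500 counts. Leaving out 1 library gave 0 to 142 calls, with 0 without either Shp2f/f library, where the IgG and Igha fold changes kept their sign. In TAM the 5 calls became 23 without a filter and 5 to 8 with 1 library left out. In the interaction the 5 calls became 8 with voom weights (6 higher, 2 lower) and 4 to 9 with 1 library left out. Between the cell types 161 calls became 106 among members with at least 500 counts, and 151 to 173 with 1 library left out. With the replicate number as a block, MDSC had 121 calls (102 higher, 19 lower), TAM 5, the interaction 3 (without Ighd and Igkv8-24) and the cell types 161; the labels do not say that the numbers pair samples. Log2 ratios of sums moved in TAM with V segments only, to 1.74 for heavy and 2.69 for lambda. Leaving out 1 library, those ratios ranged in MDSC from 0.55 to 1.08 (heavy), 0.78 to 1.26 (kappa) and -0.54 to -0.07 (lambda), and in TAM from 0.83 to 1.10, 1.43 to 2.12 and 1.25 to 1.98. The changes come with fewer libraries or other genes tested where a library, a filter or a member minimum changed; for the others the cause was not tested. No named result changed its direction where it was called. The share of all genes called was taken for the main fits only. Counts of calls under the other settings are therefore not read as a result about the members. Counts of 2 libraries per genotype in MDSC and of at most 205 V counts per TAM library limit what could be detected.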
